A study of Mus musculus with 7 samples.

Results

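The NF-kB system was read in hepatocytes from WDR6-WKO and WT animals through 10 genes: the subunit genes *Nfkb1*, *Nfkb2*, *Rela* and *Relb*, the inhibitor genes *Nfkbia* and *Nfkbie*, and the feedback or target genes *Tnfaip3*, *Icam1*, *Birc3* and *Csf1*. The members were the rows of the deposited read-count table that carry one of these symbols, and all 10 were found among its 14819 rows. Of the 10, *Csf1*, *Tnfaip3* and *Nfkbia* were higher in WDR6-WKO hepatocytes, by 1.53-fold, 1.22-fold and 1.23-fold. No gene of the set was called lower, although edgeR's quasi-likelihood test placed 1, *Nfkbie*, lower at an unadjusted p under 0.05, and DESeq2 and limma-voom also called 0 lower. None of the 4 subunit genes was called in either direction by the 3 tools, and 0 had an unadjusted p under 0.05 in edgeR.

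NF-kB factors are dimers of Rel-domain proteins that wait in the cytoplasm bound to IkB inhibitors. Cytokine and pathogen receptors act through the IkB kinase complex, which marks the inhibitor for destruction and lets the dimer enter the nucleus. Among the genes then switched on are those of the inhibitors themselves, which gives the pathway its feedback, along with adhesion molecules, survival factors and growth factors for macrophages. In the liver the pathway is known for protecting hepatocytes from death induced by tumour necrosis factor and for the recruitment of immune cells.

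RNA came from cultured hepatocytes of WT mice (n = 4) and of WDR6-WKO mice (n = 3), which lack *Wdr6* in the whole body after a CRISPR deletion in its coding sequence. The cells were isolated from male mice by collagenase perfusion, kept in serum-containing medium overnight and received no treatment in either genotype. The methods give a default age for the mice of the study, but do not restate it for these animals. As the deletion is not limited to hepatocytes, an effect arising in the cultured cell and one arising elsewhere in the animal cannot be told apart. Levels are given as CPM, read counts relative to a fixed library total after TMM scaling of the libraries, and values after ± are s.d.

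The libraries held 17816913 to 23668940 counted reads, and each member had between 138 reads (*Nfkbie*, WDR6-WKO replicate 3) and 3449 reads (*Rela*, WDR6-WKO replicate 1). *Wdr6* was at 44.0 ± 4.03 CPM in WT and 2.38 ± 0.179 CPM in WDR6-WKO, which is what the genotype labels give. The hepatocyte marker *Alb* was measured at 7366 ± 730 CPM in WT and 6480 ± 363 CPM in WDR6-WKO. WDR6-WKO replicate 3 stood somewhat apart, with Spearman correlations of 0.992 to 0.993 to the other WDR6-WKO libraries, compared with 0.996 between those and 0.995 to 0.996 among WT libraries. Results are therefore also given without it. The p-values set the difference between genotypes against the spread between libraries of the same genotype. The series describes the 7 libraries as independent experiments without naming the animals.

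In GENCODE M21 (GRCm38) the subunit genes lie as follows: *Nfkb1* at chr3:135584655-135691547 (minus strand), *Nfkb2* at chr19:46304320-46312385 (plus strand), *Rela* at chr19:5637483-5648130 (plus strand) and *Relb* at chr7:19606217-19629438 (minus strand). The inhibitor genes are *Nfkbia* at chr12:55489410-55492647 (minus strand) and *Nfkbie* at chr17:45555703-45563169 (plus strand). The feedback and target genes are *Tnfaip3* at chr10:19000910-19015657 (minus strand), *Icam1* at chr9:21015985-21028817 (plus strand), *Birc3* at chr9:7848699-7873186 (minus strand) and *Csf1* at chr3:107741048-107760469 (minus strand).

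Promoter sequences show which of the genes carry the letters of a kB site close to their start. Promoter windows of 300 bases, 250 before to 50 after the start, were taken from RefSeq (GRCm38.p6) for 8 of the 10 members, with no entry for *Nfkb1* and *Relb*. Both strands were searched for GGAANNTCC and for GGG and CC with any 5 bases between them, patterns that can overlap each other. The first pattern was found in 4.26% of all 32851 promoters, and in those of 6 members, *Nfkb2*, *Nfkbia*, *Nfkbie*, *Tnfaip3*, *Icam1* and *Csf1*, but not of *Rela* and *Birc3*. The second, much looser pattern was found in 50.8% of all promoters and in 8 of 8 members. Members were counted by gene, with a match in any of their promoter entries. Counted by entry, as for all promoters, the first pattern was in 7 of 11 and the second in 11 of 11. Windows around the first pattern are shown for the genes that differed in their level between genotypes and for *Icam1* and *Nfkbie*, with the pattern in capitals:
*Nfkbia*, nearest site, chr12:55492648-55492696, minus strand: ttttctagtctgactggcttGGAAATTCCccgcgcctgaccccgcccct
*Nfkbia*, farther site, chr12:55492797-55492845, minus strand: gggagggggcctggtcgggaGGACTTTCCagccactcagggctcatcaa
*Tnfaip3*, chr10:19015416-19015444, minus strand: tcacgtgactGGAATTTCCatcggaaatc
*Csf1*, chr3:107760595-107760643, minus strand: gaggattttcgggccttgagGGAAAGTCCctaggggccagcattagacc
*Icam1*, chr9:21015767-21015815, plus strand: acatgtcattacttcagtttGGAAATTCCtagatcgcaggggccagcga
*Nfkbie*, chr17:45555604-45555652, plus strand: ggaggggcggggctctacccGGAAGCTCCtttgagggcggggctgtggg

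The nearest *Nfkbia* match lay 29 to 21 bases before the RefSeq start, the *Tnfaip3* match 24 to 16 bases, the *Nfkbie* match 76 to 68 bases, the *Icam1* match 153 to 145 bases and the *Csf1* match 154 to 146 bases. For *Tnfaip3* the RefSeq start differs from the GENCODE one, and its window lies inside the GENCODE gene given above, outside its exons. *Nfkbia* and *Icam1* carried the same 9 letters at one match. These matches are descriptions of the sequence, and binding was not measured. *Icam1*, with the same letters as *Nfkbia*, was not called, so genes with and without a difference between genotypes both held the pattern.

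*Rela* encodes the main transactivating subunit. Its level was 153.7, 149.8, 145.8 and 139.1 CPM in the 4 WT libraries and 143.3, 152.4 and 145.8 CPM in the 3 WDR6-WKO libraries. The 2 ranges overlapped almost wholly, and the group means were 147.1 ± 6.25 and 147.2 ± 4.72 CPM. The log2 fold change was 0.00088 (SE 0.05, adjusted p = 0.995, Benjamini-Hochberg adjustment of edgeR's quasi-likelihood test), with a 95% interval of the fold from 0.928 to 1.08.

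*Nfkb1* encodes the precursor of a DNA-binding subunit and, as an uncleaved protein, acts as an IkB. WT libraries were at 115.3, 115.2, 109.9 and 114.5 CPM, and WDR6-WKO libraries at 120.0, 124.9 and 119.4 CPM. Every WDR6-WKO library was above every WT library, but the step was only 1.07-fold (95% interval 0.994 to 1.15). It did not pass the test across all genes (adjusted p = 0.215, edgeR's quasi-likelihood test). The exact two-sided permutation p of 0.0286 is the smallest that 4 libraries against 3 can give.

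*Nfkb2*, the precursor of the non-canonical pathway, measured 93.6, 89.3, 88.9 and 80.2 CPM in WT and 93.8, 99.1 and 85.3 CPM in WDR6-WKO. The ranges overlapped, with the lowest WDR6-WKO library below the mean of WT. Its fold was 1.05 (95% interval 0.958 to 1.16, adjusted p = 0.479, edgeR's quasi-likelihood test). *Relb*, the partner of *Nfkb2* in that pathway, was at 24.4, 20.4, 19.9 and 22.6 CPM in WT and 23.0, 23.9 and 26.2 CPM in WDR6-WKO. Its fold was 1.12 (95% interval 0.980 to 1.27, adjusted p = 0.258, edgeR's quasi-likelihood test), with overlapping ranges and the highest library being WDR6-WKO replicate 3. Reads of *Nfkb2* may include some of 2 antisense genes, which share 531 and 299 bases with its exons, since the strand setting of the counts is not given in the sources used here.

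**Figure D1:**
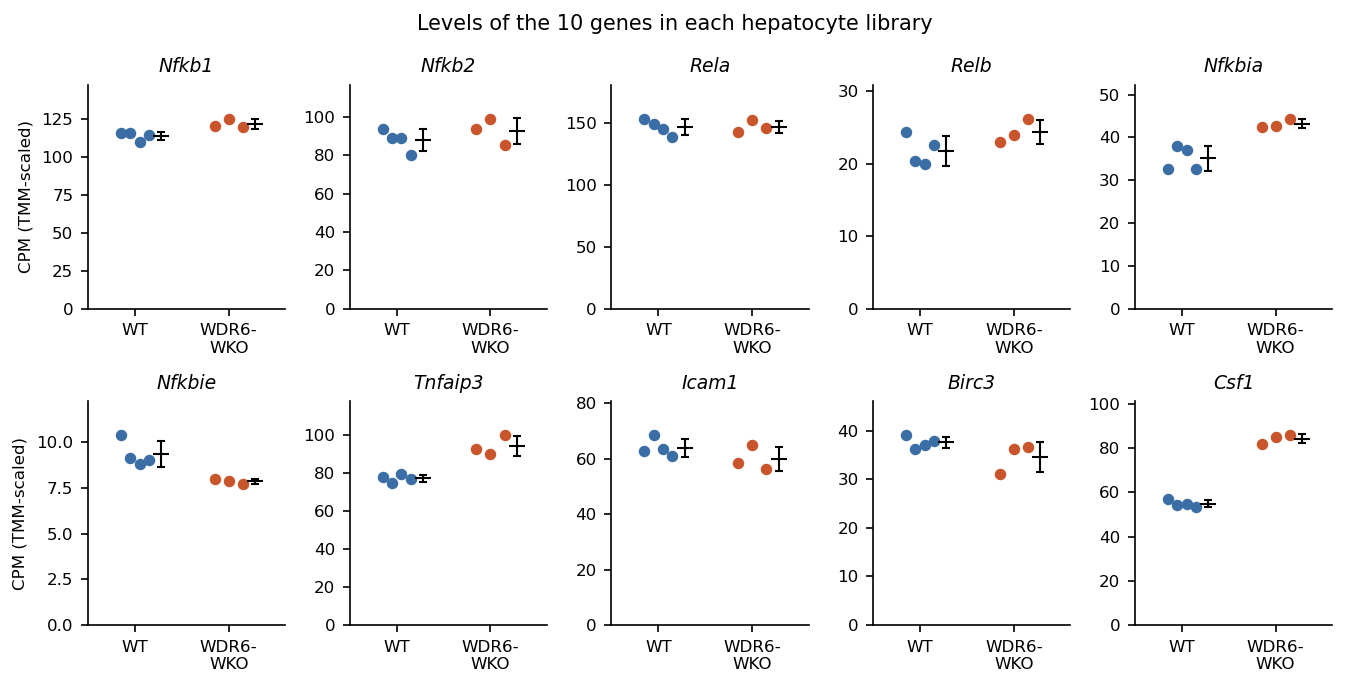
Each panel shows 1 gene, with TMM-scaled CPM on the vertical axis from 0, 1 point per library (WT blue, WDR6-WKO red), and the mean ± s.d. beside the points. WT and WDR6-WKO points are separated for *Nfkb1*, *Nfkbia*, *Tnfaip3* and *Csf1*, where WDR6-WKO is higher, and for *Nfkbie*, where it is lower.

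*Nfkbia*, the classical IkB inhibitor and an immediate target of the pathway, was at 32.7, 38.1, 37.1 and 32.6 CPM in WT and 42.5, 42.7 and 44.4 CPM in WDR6-WKO. Every WDR6-WKO library lay above the highest WT library, and the WT libraries fell into a lower and a higher pair. *Nfkbia* rose by 0.30 on the log2 scale (SE 0.07), a fold of 1.23 (95% interval 1.11 to 1.36, adjusted p = 0.0110, edgeR's quasi-likelihood test). Its counts were 649, 727, 697 and 649 reads in WT against 1023, 903 and 795 reads in WDR6-WKO.

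*Nfkbie*, which encodes another IkB, was the least expressed member, at 10.4, 9.16, 8.83 and 9.04 CPM in WT and 7.98, 7.89 and 7.71 CPM in WDR6-WKO. The groups did not overlap, in the opposite direction to *Nfkbia*. The fold was 0.841 (95% interval 0.716 to 0.987), with an unadjusted p of 0.0359 and an adjusted p of 0.147 in edgeR's quasi-likelihood test, so it was not called. The other IkB-like genes and *Rel* were set beside them. *Bcl3*, a nuclear IkB-like cofactor of the NF-kB dimers, fell from 85.1 ± 3.65 to 69.6 ± 1.91 CPM, a log2 change of -0.29 (adjusted p = 0.00263, edgeR's quasi-likelihood test), with non-overlapping ranges and 161 bases of exon shared with an antisense gene. *Nfkbiz*, the most expressed of those not called, was at 55.9 ± 4.06 and 55.3 ± 1.58 CPM. In this list of 5 genes, 0 were called higher and 1 lower (20%), beside 6.65% and 6.18% of all genes, with a median log2 fold change of -0.01. At an unadjusted p under 0.05, 1 was higher. DESeq2 and limma-voom called 0 higher and 1 lower.

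*Tnfaip3* encodes a ubiquitin-editing enzyme that shuts off signalling below the receptors. It was at 77.6, 74.8, 79.5 and 76.6 CPM in WT, against 92.8, 89.8 and 99.9 CPM in WDR6-WKO. Here the groups were well apart, and replicate 3 was the highest WDR6-WKO library. The rise was 0.29 on the log2 scale (SE 0.05), a fold of 1.22 (95% interval 1.12 to 1.32, adjusted p = 0.00269, edgeR's quasi-likelihood test).

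*Birc3*, an inhibitor-of-apoptosis protein and ubiquitin ligase of the tumour necrosis factor receptor complex, ranged from 36.3 to 39.1 CPM in WT and was at 31.2, 36.3 and 36.7 CPM in WDR6-WKO. WDR6-WKO replicate 1 alone was far below the others. The fold was 0.921, a log2 change of -0.12 (SE 0.07, adjusted p = 0.302, edgeR's quasi-likelihood test). Of its 50-base stretches, 7.34% are shared with other genes, so some reads may be misplaced.

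*Csf1*, the growth factor of macrophages and Kupffer cells, differed most. It was at 57.1, 54.4, 55.0 and 53.4 CPM in WT and at 82.1, 85.1 and 86.0 CPM in WDR6-WKO, with the lowest WDR6-WKO library well above the highest WT library. The difference was 0.62 on the log2 scale (SE 0.05, fold 1.53, 95% interval 1.42 to 1.66, adjusted p = 1.82e-06, edgeR's quasi-likelihood test). By p-value it was the gene of rank 48 among the 14779 tested. *Icam1*, the leukocyte adhesion molecule and a textbook NF-kB target, was at 62.6, 68.5, 63.7 and 61.0 CPM in WT and 58.5, 64.8 and 56.5 CPM in WDR6-WKO. Its ranges overlapped and its fold was 0.938 (95% interval 0.853 to 1.03, adjusted p = 0.373, edgeR's quasi-likelihood test), with 511 bases of its exons shared with an antisense gene.

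Together, 3 of 10 members passed the threshold in edgeR's quasi-likelihood test, all higher in WDR6-WKO. Over all 14779 genes tested, 12.8% were called, with 6.65% higher and 6.18% lower. The members were chosen with earlier results of these data known, so this comparison is a description. The ranges of the libraries did not overlap for 4 members in the higher direction and 1 in the lower, set against 11.8% of all genes higher and 23.5% in either direction. The median log2 fold change of the 10 was 0.09, while that of all genes was 0.01, and 7 of 10 values were positive. Without WDR6-WKO replicate 3 the called members were still *Csf1* (0.60), *Nfkbia* (0.28) and *Tnfaip3* (0.24 on the log2 scale), and *Nfkbie* stood at -0.24. In that setting 28.6% of all genes were called, 2150 of 14796 in the higher direction, so 3 of 10 members called is near the share of all genes. The study's methods set a log2 fold change of at least 0.35 in either direction and an unadjusted p under 0.05, with DESeq2. Here these thresholds were applied to edgeR's quasi-likelihood test. At them 1 of 10 passed, *Csf1*, where 10.4% of all genes did, 6.42% in the higher direction.

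**Figure D2:**
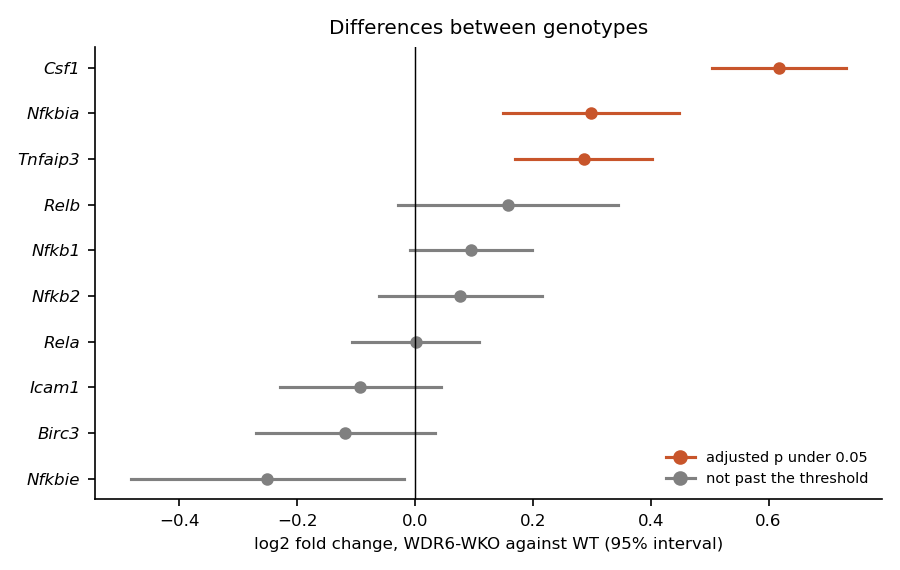
Points are log2 fold changes of WDR6-WKO against WT for the 10 genes, lines are 95% intervals, and red marks an adjusted p under 0.05. The interval of *Csf1* (0.50 to 0.73) lies above those of *Nfkbia* and *Tnfaip3*, and those of the 4 subunit genes reach 0.

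The balance of each subunit and inhibitor to *Rela* was taken from raw counts inside each library, so that scaling between libraries does not enter. The *Nfkbia* to *Rela* ratio was 0.239 ± 0.0197 in WT and 0.294 ± 0.0126 in WDR6-WKO, and the *Nfkbie* to *Rela* ratio was 0.0636 ± 0.00330 in WT and 0.0534 ± 0.00201 in WDR6-WKO. Both ratios differed without overlap, at an exact two-sided permutation p of 0.0286 each, the smallest possible, and 0.0714 after adjustment over the 5 ratios, so neither passed. A larger difference in these ratios alone could not have passed either, because the permutation p cannot go lower. The *Nfkb1*, *Nfkb2* and *Relb* ratios to *Rela* differed by 0.09, 0.07 and 0.16 on the log2 scale, with exact permutation p of 0.114, 0.2 and 0.257.

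Levels of different genes were compared per kilobase of the longest coding transcript, as CPM per kb. In WT *Rela* was highest, at 54.2 ± 2.30 CPM per kb, and *Nfkbie* lowest, at 3.84 ± 0.288. Between them came *Nfkb1* (27.6 ± 0.629), *Icam1* (25.2 ± 1.28), *Nfkb2* (22.9 ± 1.45), *Nfkbia* (22.3 ± 1.82), *Tnfaip3* (17.4 ± 0.441), *Csf1* (13.2 ± 0.380), *Birc3* (12.9 ± 0.420) and *Relb* (9.87 ± 0.936). Neighbours overlapped in their WT ranges from *Nfkb1* to *Nfkbia* and for *Csf1* and *Birc3*, so the order within those runs is not resolved. *Nfkbia*, at rank 5 in WT within the first of those runs, was at rank 3 in WDR6-WKO with 27.4 CPM per kb. With the union of all exons it was at rank 2 in WT and at rank 2 in WDR6-WKO, so this step in rank was lost. The order rests on which transcript is used: with the union of all exons, 4 of 10 genes kept their WT rank, and *Nfkb1* fell from rank 2 to rank 7.

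The pathway genes are read against the 12.8% of all genes called. None of 10 kinase genes upstream of the subunits was called in edgeR's quasi-likelihood test with all 7 libraries. Without WDR6-WKO replicate 3, 4 of 10 were called, where 28.6% of all genes were. With all 7 libraries, 1 was higher and 2 lower at an unadjusted p under 0.05, and DESeq2 and limma-voom called 0. *Ikbkg*, the regulatory subunit of the IkB kinase complex, was at 217.6 ± 6.87 and 202.9 ± 6.22 CPM (log2 fold change -0.10, adjusted p = 0.174), with 418 bases shared with an antisense gene. Among 6 ligand genes tested of 10 listed, edgeR, DESeq2 and limma-voom called 0, and 0 had an unadjusted p under 0.05; *Il33*, an alarmin and the most expressed, was at 115 ± 6.10 and 111 ± 14.6 CPM.

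Receptors and adaptors gave 1 gene higher and 2 lower of 29 tested, a share of 10.3% near the 12.8% of all genes, with a median log2 fold change of 0.04. DESeq2 called 3 higher and 2 lower and limma-voom 2 and 2, and at an unadjusted p under 0.05 the counts were 7 and 5. *Il1r1*, the signalling receptor of interleukin-1, fell from 144 ± 6.08 to 116 ± 2.15 CPM (log2 change -0.31, adjusted p = 8.48e-04), and *Tlr5*, the flagellin receptor, fell from 8.62 ± 0.977 to 5.83 ± 0.959 CPM (-0.57, adjusted p = 0.0156), a call lost without WT replicate 4 and without WDR6-WKO replicate 2. *Tlr3*, the sensor of double-stranded RNA, rose from 25.2 ± 1.71 to 32.5 ± 3.14 CPM (0.36, adjusted p = 0.00926, all by edgeR's quasi-likelihood test), with 381 bases of its exons shared with an antisense gene. *Tnfrsf12a*, the receptor of the cytokine TWEAK and the most expressed of those not called, was at 176 ± 8.79 and 266 ± 73.2 CPM, with replicate 3 the lowest of the WDR6-WKO libraries.

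Ubiquitin enzymes of the pathway gave 0 higher and 2 lower of 14, with 0 higher and 3 lower at an unadjusted p under 0.05, and 2 lower by DESeq2 and by limma-voom. The share of 14.3% is near the 12.8% of all genes. *Xiap*, an inhibitor-of-apoptosis protein, fell from 270.0 ± 7.79 to 219 ± 19.5 CPM (-0.30, adjusted p = 0.00230), and *Itch*, a ubiquitin ligase that works with *Tnfaip3*, from 119 ± 5.44 to 102 ± 11.9 CPM (-0.23, adjusted p = 0.0397, edgeR's quasi-likelihood test). The call of *Itch* was lost in 7 of 14 alternatives: with library sizes alone and without any one of WT replicates 1 to 4 or WDR6-WKO replicates 1 and 2. *Rnf11*, not called, was at 445 ± 13.6 and 466 ± 34.0 CPM.

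The other target genes of the pathway held 12 of the 21 calls made over the 101 pathway genes outside the set. Of 31 tested, 11 were higher and 1 was lower, or 35.5% and 3.23%, beside 6.65% and 6.18% of all genes. Of the values 26 were positive, and the median log2 fold change was 0.10. This list, like the others, was chosen with earlier results of these data known, so the shares are a description. *Cxcl10*, a chemokine for T cells that interferons also induce, rose from 5.56 ± 1.04 to 19.1 ± 2.03 CPM (1.78 on the log2 scale, adjusted p = 3.84e-07). *Ccl2*, the monocyte chemokine, rose from 179.8 ± 8.53 to 255 ± 2.45 CPM (0.51, adjusted p = 4.59e-06). *Ccl20* rose from 4.74 ± 0.457 to 11.0 ± 1.15 CPM (1.21, adjusted p = 1.11e-05), and *Ccnd1*, the cyclin of G1, from 117 ± 7.96 to 171 ± 8.65 CPM (0.54, adjusted p = 1.79e-05, all by edgeR's quasi-likelihood test). *Ccnd1* shares 1100 bases and *Cxcl10* 133 bases of exon with an antisense gene. The other higher genes, named after their values were seen, were *Lcn2*, *Plau*, *Myc*, *Cxcl5*, *Ptgs2*, *Saa3* and *Gadd45b*, the last of which was called in 9 of 14 alternatives, not without WT replicates 2, 3 or 4 or WDR6-WKO replicates 1 or 2. *Vcam1*, an adhesion molecule like *Icam1*, was the lower one, at 143 ± 2.99 and 119.6 ± 3.58 CPM (-0.26), and was also named after its values were seen. *Fth1*, ferritin heavy chain, did not pass, at 4232 ± 286 and 4400 ± 145 CPM.

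**Figure D3:**
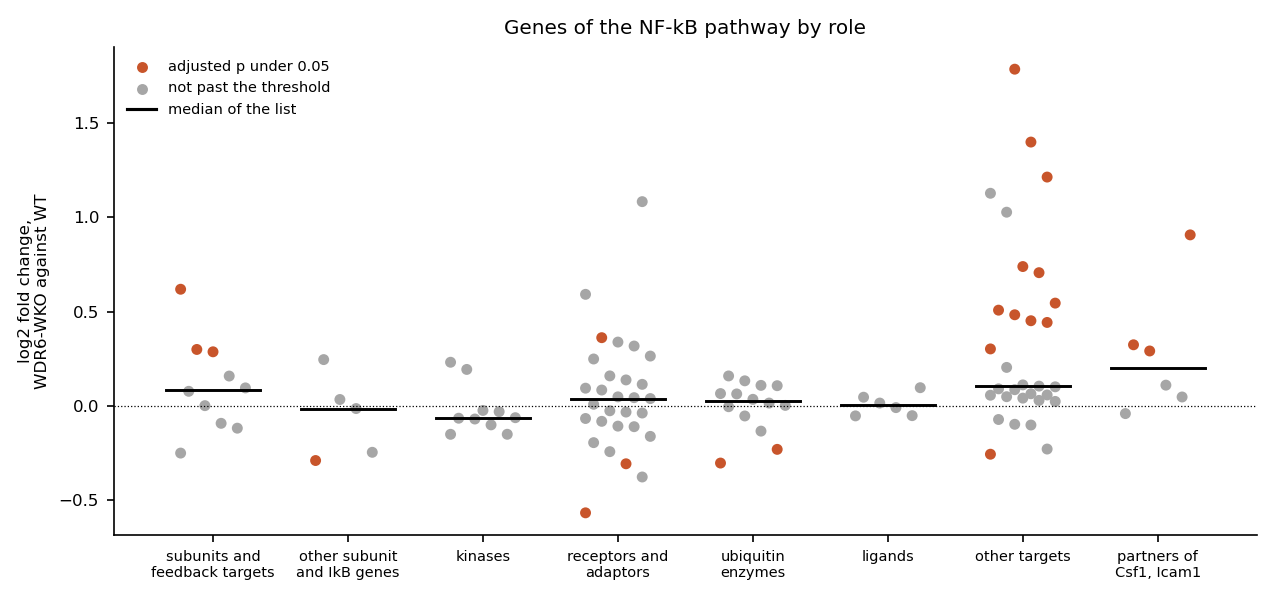
Each point is the log2 fold change of 1 gene, WDR6-WKO against WT, grouped by role in the pathway, with red for an adjusted p under 0.05 and a bar for the median of the list. Medians lie between -0.06 and 0.20, and the red points above 0 are mostly among the other target genes.

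Among the 6 genes of the receptor and ligand partners of *Csf1* and *Icam1*, 3 were higher (50%) and 0 lower, beside 6.65% and 6.18% of all genes. With a list this small, chosen with earlier results known, the share is a description. Again 0 were lower at an unadjusted p under 0.05 and by DESeq2 and limma-voom. DESeq2 called 3 higher and limma-voom 2. *Itgb2*, the beta chain of the integrins that bind *Icam1*, rose from 39.7 ± 2.62 to 48.5 ± 0.923 CPM (0.29, adjusted p = 0.00792). *Il34*, the other ligand of the *Csf1* receptor, rose from 12.2 ± 0.851 to 15.3 ± 1.77 CPM (0.32, adjusted p = 0.0481), a call lost in 8 of 14 alternatives: with DESeq2 size factors, with limma-voom and without any one of WT replicates 1 to 4 or WDR6-WKO replicates 1 and 2. *Itgam* was at 2.81 ± 0.0931 and 5.25 ± 0.556 CPM (0.91, adjusted p = 8.48e-04, all by edgeR's quasi-likelihood test), but 72.4% of its 50-base stretches are shared with a further gene, so its value is uncertain. *Csf1r*, the receptor itself, was at 61.8 ± 3.13 and 66.7 ± 3.63 CPM and was not called (adjusted p = 0.261), with 873 bases of its exons shared with an antisense gene.

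Without WDR6-WKO replicate 3 more of the pathway genes were called by edgeR's quasi-likelihood test, 25 higher and 13 lower of 101, as were 28.6% of all genes. Of all 14796 genes tested in that setting, 2150 were higher and 2083 lower. The other targets then held 16 higher and 1 lower of 31, the receptors and adaptors 2 and 4 of 29, and the ubiquitin enzymes 1 and 3 of 14. The kinases held 1 and 3 of 10 and the ligands 0 and 1 of 6. The other subunit and IkB genes held 1 and 1 of 5, and the partners of *Csf1* and *Icam1* 4 and 0 of 6.

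The genes whose profile over the 7 libraries was most like that of *Csf1*, by the root mean square difference of centred log2 CPM, were *Gpat3* (0.0347), *Emp1* (0.0504), *Aars* (0.0529), *Aqp8* (0.0539) and *Slc25a48* (0.0648). They rose by 0.62, 0.65, 0.61, 0.65 and 0.58 on the log2 scale. They were chosen for that likeness, so these values are a description. *Gpat3* and *Aars* overlap other genes.

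Signals of other liver cells were read beside these results, since hepatocyte preparations can carry Kupffer, stellate, endothelial and bile duct cells. In a bulk sample, fewer cells of a type and less RNA per cell cannot be told apart. The summed level of 15 Kupffer cell markers was 1071 to 1173 CPM in WT and 1238 to 1435 CPM in WDR6-WKO. Of these markers 4 were called higher and 0 lower, and 13 of the 15 log2 fold changes were positive. The called ones were *Lyz2* (0.64), *Fcgr1* (0.75), *C1qc* (0.48) and *C1qb* (0.30 on the log2 scale). *Clec4f*, the defining Kupffer cell gene, was at 117 ± 5.62 and 126 ± 10.4 CPM (adjusted p = 0.311), *Vsig4* at 79.2 ± 8.01 and 92.1 ± 12.3 CPM, and *Timd4* at 3.65 ± 0.523 and 2.59 ± 0.278 CPM. Cholangiocyte markers summed to 3068 to 3360 CPM in WT and 3714 to 4306 CPM in WDR6-WKO, but *Spp1* alone made up 92.7% and 93.8% of these sums. *Spp1* and *Sox9* were called higher, while the defining marker *Krt19* was at 148 ± 15.3 and 143 ± 18.5 CPM, and the 4 markers other than *Spp1* summed to 221 to 246 CPM in WT and 224 to 252 CPM in WDR6-WKO. Stellate cell markers, 2 of 9 called higher, summed to 674 to 735 CPM and 725 to 792 CPM. Endothelial markers, 1 of 10 called lower, summed to 330 to 378 CPM and 311 to 368 CPM. No lymphocyte marker of 6 was in the table, and of 5 neutrophil markers only *Csf3r*, at 1.77 ± 0.407 and 1.63 ± 0.315 CPM. Hepatocyte markers summed to 13418 to 16009 CPM and 12416 to 14344 CPM. Of these, 3 of 8 were called lower: *Cps1* (-0.69), *Apoa1* (-0.69) and *Hnf4a* (-0.27 on the log2 scale). The shares called higher were 26.7% of Kupffer cell, 40% of cholangiocyte and 22.2% of stellate cell markers, beside 6.65% of all genes. Those called lower were 37.5% of hepatocyte and 10% of endothelial markers, beside 6.18% of all genes.

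The Kupffer cell sum was 1.20, 1.28 and 1.10 times the WT mean in WDR6-WKO replicates 1, 2 and 3, while *Csf1* was at 1.49, 1.55 and 1.56, *Tnfaip3* at 1.20, 1.16 and 1.29, and *Nfkbia* at 1.21, 1.22 and 1.26. Replicate 3, with the lowest Kupffer cell sum of the WDR6-WKO libraries, was the highest of them for all 3 genes. Single Kupffer cell markers did not all follow their sum. *Marco* was at 157.5, 165.2 and 104.7 CPM in WDR6-WKO replicates 1, 2 and 3. In the same libraries *Lyz2* was at 77.3, 74.7 and 79.5 CPM, and *Cd68* at 85.5, 86.9 and 89.6 CPM. The part of other cells in the differences was not tested.

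**Figure D4:**
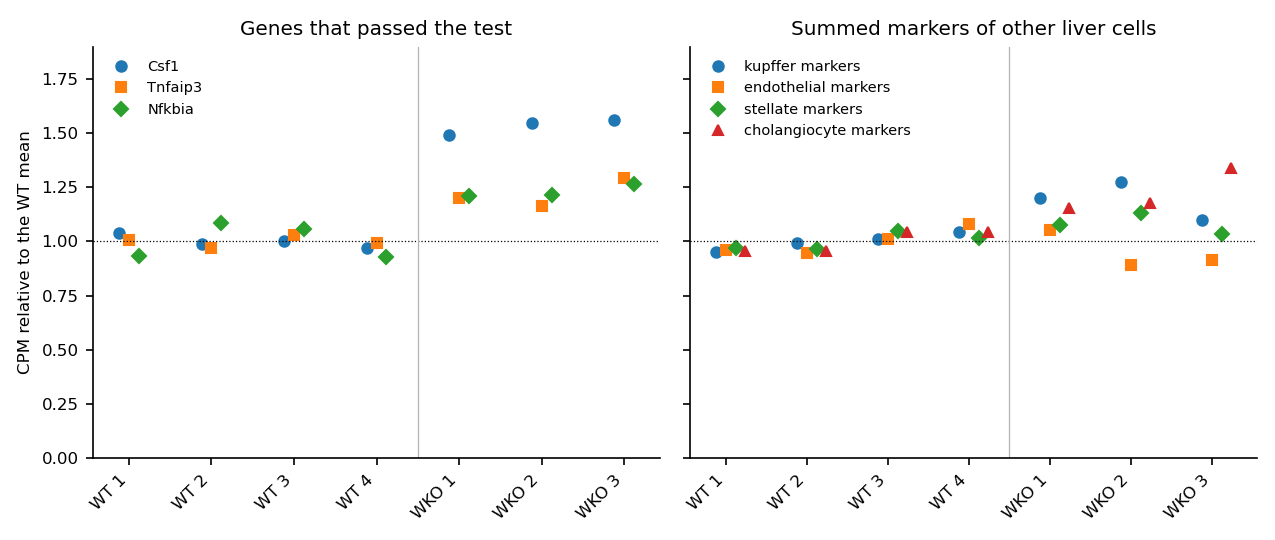
Both panels give CPM relative to the WT mean (dotted line at 1) for each library, with the genes that passed the test on the left and the summed markers of other liver cells on the right. *Csf1* is at 1.49 to 1.56 in WDR6-WKO, and the Kupffer cell sum at 1.10 to 1.28, and the cholangiocyte sum is mostly *Spp1*.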

How the data were processed

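RNA of primary hepatocytes from WT (n = 4) and WDR6-WKO (n = 3) mice was sequenced by the authors on an Illumina platform. The deposited table holds read counts per gene symbol without normalization, made from reads aligned with Bowtie 2.2.3 to mm10 per the submitters' processing notes in the labels; the counting tool, annotation and strand setting are not given in the sources used here. The smallest row total was 50, and libraries held 17816913 to 23668940 reads.

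From these counts, edgeR 4.0.16 in R 4.3.3 was run with its expression filter, TMM scaling and robust quasi-likelihood test, and p-values were adjusted by Benjamini-Hochberg over 14779 genes. Genes were called at an adjusted p under 0.05. SE and 95% intervals came from the log2 fold change and F statistic. Single genes and ratios were also tested by exact two-sided permutation over all 35 splits. The steps were tested on simulated data, where 137 of 196 changed genes were recovered and 7 unchanged genes were called. Exon overlaps and lengths came from GENCODE M21 (GRCm38), promoters from RefSeq.

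Members and gene lists were chosen with earlier results of these data known. Named were all members, *Wdr6*, from each list up to 4 called genes by p and the most expressed one not called, defining cell markers, and the 5 genes most like *Csf1*. Alternatives were DESeq2 1.42.0 and its size factors, limma-voom (limma 3.58.1), library sizes alone, other filters, the thresholds of the methods, the replicate number as a block, and each library left out. Replicate numbers were not used to pair libraries. No library was a copy of another, with chi-square per gene of 3.81 to 16.0 over all pairs of libraries within a group.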

Additional observations from a re-analysis of the deposited data

Results flagged for a closer look

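Among the WT libraries, 1 gene was set apart by a single library. *Nfkb1* was at 109.9 CPM in WT replicate 3, below the 114.5 to 115.3 CPM of the others, with a gap of 0.846 of the range of the group. Chance sets apart about 1 in 20 such groups, and 15 were examined.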

How the results depend on the processing

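Under the 14 alternatives, *Csf1*, *Nfkbia* and *Tnfaip3* were the called members each time, with log2 fold changes of 0.60 to 0.64, 0.26 to 0.34 and 0.24 to 0.32. Adjusted p reached at most 0.0497 for *Nfkbia*, without WT replicate 4. Apart from these alternatives, the thresholds of the methods left 1 member. Of 140 member values, 134 kept their direction and side of the threshold, and the 6 that turned sign were all of *Rela*: -0.0043 with DESeq2 size factors and with DESeq2, -0.0255 with the replicate block, and, leaving out each library, -0.0258 to 0.0226. Genes called over all numbered 1897 and ranged from 1032 (without WDR6-WKO replicate 2) to 4233 (without WDR6-WKO replicate 3, 28.6% of those tested), with 1210 without WT replicate 3, 1182 without WT replicate 4 and 1180 without WDR6-WKO replicate 1. In the pathway lists, 21 calls (15 higher, 6 lower) ranged from 18 to 38 on leaving out each library, the latter without WDR6-WKO replicate 3 (25 higher, 13 lower). The cause was not tested. The thresholds of the methods gave 17 (16 higher, 1 lower). Library sizes alone gave 1212 genes higher and 696 lower, in place of 983 and 914. The union of exons kept 4 of 10 ranks. After the mean of each genotype was taken off the log2 CPM, the remaining deviations of same-numbered libraries correlated at 0.0311 to 0.0689 over 3 pairs. Of the 3 WDR6-WKO libraries, 1 was most like the WT library of its own number. So few pairs show no sign of a pairing by number but cannot exclude it. The block gave 1762 genes and the same 3 members.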
